A study of Homo sapiens with 9 samples.

Results

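Polyamine synthesis and methionine salvage were followed through 10 genes, AMD1, ODC1, SRM, SMS, MTAP, SAT1, SMOX, PAOX, AZIN1 and OAZ1. They were chosen by symbol, with earlier results of these data known, and matched to Ensembl identifiers. All 10 had a row among the 60617 identifiers of the count data and were among the 18532 genes tested. The cells were PC-3, an established human prostate cancer cell line, and RNA was taken 5 days after the start of treatment. The 3 control libraries (Ctrl) came from cells given the vehicle, a solution of sulfuric acid and ethanol in PBS. The 3 decitabine libraries (Dec) came from cells given 1 µM decitabine, a cytidine analogue that blocks DNA methyltransferases. The 3 libraries of the combination treatment (Dec_Sam) came from cells given 1 µM decitabine and 200 µM S-adenosylmethionine (SAM), the methyl donor of the cell. The doses and the vehicle are those of the study's methods. Only 1 cell line was used, and libraries of cells given SAM alone were not analysed here, so the effect of SAM was seen only on top of decitabine.

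Polyamines are small positively charged molecules that bind nucleic acids and are needed for growth, and prostate cells make them in large amounts. Putrescine, made from ornithine, is extended to spermidine and spermine with aminopropyl groups that come from decarboxylated SAM, so the pathway draws on the same SAM pool as methylation. The by-product methylthioadenosine is returned to methionine by the salvage pathway, while acetylation and oxidation break spermine and spermidine down again.

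Library totals ranged from 21934307 to 22489684 estimated counts. The median gene of a library deviated from its group mean by 0.051 to 0.095 on the log2 scale. Of the markers known for PC-3, the keratins KRT8, KRT18 and KRT19, EPCAM and VIM were read in every library. Their sum was 2130 to 2270 CPM in Ctrl, 1380 to 1530 in Dec and 1190 to 1400 in Dec_Sam. CPM values here and below are counts relative to library sizes scaled by TMM factors, not to library size alone. VIM alone went from 1220 to 1310 CPM in Ctrl to 524 to 639 in Dec and 476 to 547 in Dec_Sam. KRT18 and KRT19 were also lower in both treated groups. KRT8 went the other way, from 107 to 127 CPM in Ctrl to 254 to 274 in Dec and 201 to 217 in Dec_Sam. EPCAM overlapped between the groups, at 15.8 to 18.2 CPM in Ctrl, 16.4 to 23.3 in Dec and 16.8 to 25.6 in Dec_Sam. KLK3, the prostate-specific antigen that PC-3 lacks, was at 0 in all 9 libraries. The summed level of 3 fibroblast markers (COL1A1, COL1A2 and PDGFRB) was 3.26 to 5.15 CPM in Ctrl, 81.0 to 123 in Dec and 65.4 to 94.9 in Dec_Sam, carried by the 2 collagens, while PDGFRB stayed at or below 0.596 CPM throughout. The sum of 3 endothelial markers (PECAM1, CDH5 and VWF) was 9.88 to 10.6 CPM in Ctrl, 31.0 to 41.7 in Dec and 36.6 to 43.8 in Dec_Sam, carried by PECAM1. For 3 leukocyte markers (PTPRC, CD3E and MS4A1, the last at 0 throughout) it was at most 0.1 CPM in Ctrl, 1.35 in Dec and 1.02 in Dec_Sam. The part of the markers that moved with the treatments in the results below was not tested.

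Under decitabine alone ODC1, SRM, SMS, MTAP and OAZ1 were downregulated and SAT1, SMOX, PAOX and AZIN1 upregulated, where the calls of SRM and OAZ1 depended on the scaling and those of SRM and AZIN1 on single libraries. With the combination treatment, AMD1, ODC1, SMOX and MTAP were higher than with decitabine alone by 1.39- to 1.72-fold. AMD1 was the only one of the 10 members that was higher than the controls after the combination treatment and not after decitabine alone (with library size as the only scaling, SRM was as well). Many genes responded in these cells, so these counts stand beside those of all genes tested.

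Against the controls, 4 of 10 members were higher with decitabine, where 36.3% of all genes tested were. Another 5 members were lower, against 32.5% of all genes. In TMM-scaled CPM the groups did not overlap for 9 of 10 members, against 72.9% of all genes. The median log2 fold change was -0.17 over the members and 0.04 over all genes tested. With the combination treatment 5 members were higher and 3 lower than in the controls, against 35.9% and 31.3% of all genes. In TMM-scaled CPM the groups did not overlap for 8 members, against 71.6% of all genes. The median was 0.08 over the members and 0.05 over all genes. With 10 members these counts lie near the shares of all genes, and nothing is read from them about the members as a group. With library size as the only scaling, 4 members were higher and 3 lower with decitabine, and 6 higher and 1 lower with the combination treatment.

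Between the treatments 4 of 10 members were higher and 0 lower, against 7.67% and 8.02% of all genes tested, in edgeR's quasi-likelihood test. At an unadjusted p under 0.05 the count of lower members was 0 as well, and DESeq2 and voom with limma also gave 0. PAOX, the member on the lower side, had an unadjusted p of 0.356 in the quasi-likelihood test. On the higher side DESeq2 gave 5 members, OAZ1 among them, and voom with limma 4. In the quasi-likelihood test OAZ1 had an unadjusted p of 0.0117. In TMM-scaled CPM the groups did not overlap for 5 members (AMD1, ODC1, SAT1, SMOX and MTAP), against 34% of all genes. The median log2 fold change was 0.20 over the members and 0.00 over all genes tested, and 9 of 10 members were on the higher side. The members were chosen with earlier results of these data known, so nothing is read from these counts about the members as a group. The 3 comparisons share libraries, and their values are therefore set side by side.

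**Figure D1:**
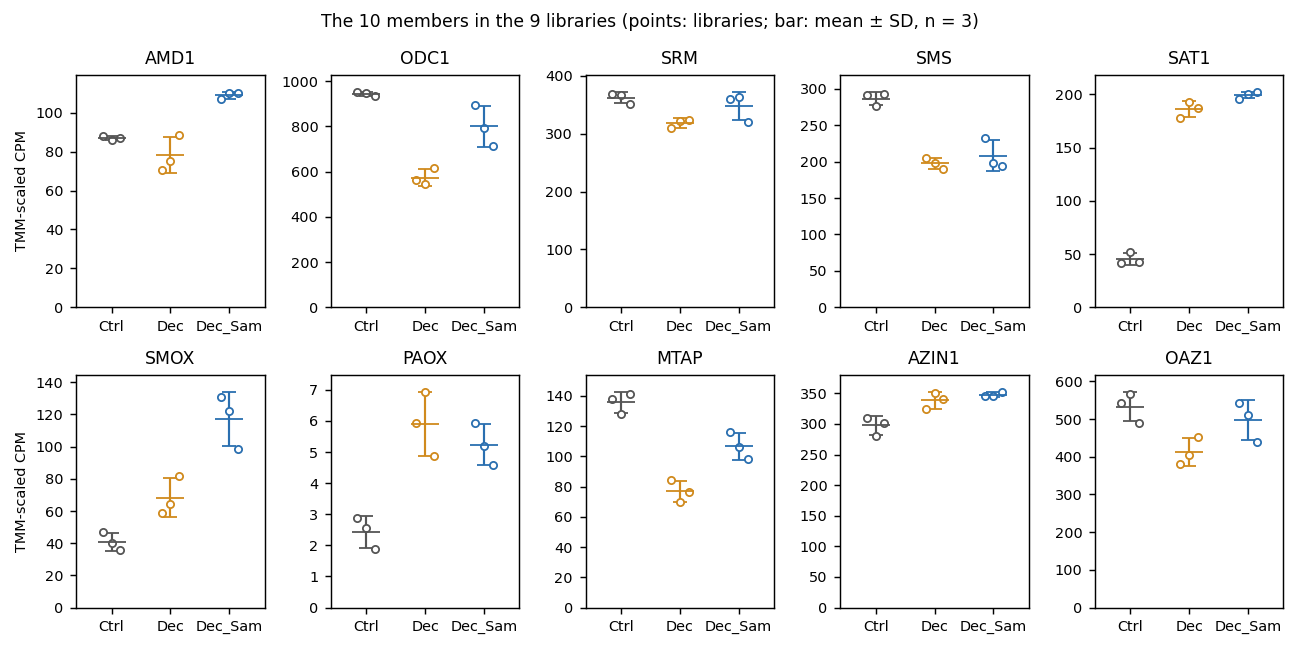
Levels of the 10 members in the 9 libraries, in CPM scaled by TMM factors (vertical axes from 0). Open points are libraries and bars give the mean ± SD of 3 libraries. SAT1 lies at 41.4 to 52.2 CPM in Ctrl and at 178 to 202 CPM in both treated groups, while AMD1 lies highest in Dec_Sam.

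Decitabine acts at CG pairs of DNA, whose cytosines carry methylation. RefSeq promoter windows of 250 bases before to 50 bases after the start (build GRCh38.p14) were used for 7 of the 10 members. SMOX and PAOX had no entry, and AZIN1 was not searched. The windows held 26 CG pairs in AMD1, 43 in ODC1, 48 in SRM, 35 in SMS, 32 in SAT1, 15 in MTAP and 42 in OAZ1. Over 34941 promoter windows of that length the median was 14 pairs, and the quartiles were 4 and 28. MTAP thus lay just above the median and 5 of the other 6 above the upper quartile. Methylation was not measured in these libraries. The 250 bases before the start are printed 5′ to 3′ on the gene's strand for SAT1, which rose most, and for AMD1, ODC1 and MTAP, which moved together between the treatments. Capitals mark CG pairs.
SAT1, chrX:23782923-23783172, plus strand: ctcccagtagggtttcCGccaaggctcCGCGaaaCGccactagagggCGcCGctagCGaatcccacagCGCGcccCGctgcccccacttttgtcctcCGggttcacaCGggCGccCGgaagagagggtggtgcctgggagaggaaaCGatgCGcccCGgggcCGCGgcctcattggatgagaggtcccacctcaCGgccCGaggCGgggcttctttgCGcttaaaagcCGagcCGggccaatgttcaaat
AMD1, chr6:110874534-110874783, plus strand: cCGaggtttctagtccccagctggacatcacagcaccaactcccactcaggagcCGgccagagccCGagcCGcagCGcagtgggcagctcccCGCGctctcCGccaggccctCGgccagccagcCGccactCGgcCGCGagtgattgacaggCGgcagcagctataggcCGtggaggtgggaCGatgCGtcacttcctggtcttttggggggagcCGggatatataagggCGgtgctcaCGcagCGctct
ODC1, chr2:10448328-10448577, minus strand: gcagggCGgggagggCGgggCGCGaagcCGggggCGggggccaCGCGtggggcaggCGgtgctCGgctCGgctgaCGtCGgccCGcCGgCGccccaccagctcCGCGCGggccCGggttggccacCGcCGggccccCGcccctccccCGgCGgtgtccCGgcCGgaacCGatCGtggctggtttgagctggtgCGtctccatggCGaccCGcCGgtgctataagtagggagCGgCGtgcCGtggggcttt
MTAP, chr9:21802386-21802635, plus strand: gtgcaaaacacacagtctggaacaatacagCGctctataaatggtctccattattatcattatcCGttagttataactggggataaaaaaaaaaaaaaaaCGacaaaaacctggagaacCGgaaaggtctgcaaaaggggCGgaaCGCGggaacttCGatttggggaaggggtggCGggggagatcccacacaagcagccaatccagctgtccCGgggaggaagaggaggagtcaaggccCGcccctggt

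The printed bases held 25 CG pairs before SAT1, 21 before AMD1, 36 before ODC1 and 11 before MTAP. Each of these genes had such pairs, and MTAP had the fewest. Whether the number of pairs goes with the response to decitabine was not tested. Each of the 7 windows was also searched on both strands for CACGTG, the E-box that MYC binds, for TGACNNNGC, the core of the antioxidant response element, and for TGATGNAA, the core of amino acid response elements. CACGTG occurred in SRM, from base -199 to base -194 with the start counted as 0, and in 7.23% of all windows. TGACNNNGC occurred in ODC1 as GCTTTGTCA, on the opposite strand from base -5 to base 3, and in 13.3% of all windows. TGATGNAA, held by 3.62% of all windows, matched in none of the 7. These are matches of letters and show no binding. Bases outside the windows were not searched, so a gene without a match may hold the motif elsewhere.

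AMD1 (ENSG00000123505, chr6:110874770-110898879, plus strand, GENCODE release 44 on GRCh38) encodes S-adenosylmethionine decarboxylase, which makes the aminopropyl donor from SAM. It read 88.2, 86.1 and 86.8 CPM in the 3 Ctrl libraries, 70.4, 75.4 and 88.4 CPM in Dec, and 107, 110 and 110 CPM in Dec_Sam. The Dec_Sam libraries were above all others, and the third Dec library, at 88.4 CPM, lay just above the highest control at 88.2 CPM. AMD1 did not pass the test with decitabine, with a log2 fold change of -0.16 (95% interval -0.33 to 0.01, adjusted p = 0.0927). This hung on that library, without which the change was -0.26 and passed (adjusted p = 0.00503), and with library size as the only scaling the change was 0.09. The combination treatment raised AMD1 above the controls by 0.33 ± 0.08 on the log2 scale (SE, adjusted p = 0.00225), or by 0.55 with that other scaling. Against decitabine alone it was 1.4-fold higher, by 0.48 on the log2 scale (95% interval 0.31 to 0.65, adjusted p = 0.00217), and it kept this call without any 1 library.

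ODC1 (ENSG00000115758, chr2:10439968-10448327, minus strand) encodes ornithine decarboxylase, the enzyme that makes putrescine and the classical rate-limiting step of the pathway. Its level was 951, 947 and 935 CPM in Ctrl, 561, 543 and 614 CPM in Dec, and 893, 792 and 715 CPM in Dec_Sam. In CPM the 3 groups did not overlap, and Dec_Sam lay between the others with the widest spread (mean 800 ± 89.4 CPM, SD, n = 3). Before scaling, the ODC1 counts of Ctrl (18932 to 19155) and Dec_Sam (16783 to 20514) overlapped. ODC1 fell by 39.4% with decitabine, a log2 fold change of -0.72 (95% interval -0.91 to -0.54, adjusted p = 3.73e-06), and with library size as the only scaling the change was -0.48 (adjusted p = 0.000115). With the combination treatment it stood at 0.847 of the control level, at -0.24 ± 0.09 on the log2 scale (SE, adjusted p = 0.0218). That call was lost without the second control library (adjusted p = 0.0507), the second Dec_Sam library (0.0632) or the third Dec_Sam library (0.0754, with a change of -0.17), and with library size as the only scaling. Between the treatments ODC1 was 1.4-fold higher with SAM added (log2 fold change 0.48, 95% interval 0.30 to 0.67, adjusted p = 0.00299). The 2 decarboxylases, AMD1 and ODC1, were thus both higher when SAM was added to decitabine, and whether they rose to different extents was not tested.

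SRM (ENSG00000116649, chr1:11054584-11060020, minus strand) encodes spermidine synthase, which adds the first aminopropyl group. It read 369, 366 and 352 CPM in Ctrl, 309, 322 and 324 CPM in Dec, and 360, 364 and 320 CPM in Dec_Sam. In CPM the Dec libraries were below the controls, and Dec_Sam overlapped both groups. Before scaling, the SRM counts of Ctrl (7121 to 7432) and Dec (7315 to 7644) overlapped. In Dec the change was -0.19 on the log2 scale (adjusted p = 0.0289), which failed the threshold without the first or second control library or the first or second Dec library (adjusted p up to 0.0757). With library size as the only scaling, a setting that moved the median of all genes to 0.28, SRM was at 0.06 with decitabine and at 0.16 with the combination treatment. With TMM scaling the change with the combination treatment was -0.06 (95% interval -0.21 to 0.09, adjusted p = 0.484), and between the treatments 0.13 (95% interval -0.02 to 0.28, adjusted p = 0.23). No direction of SRM held under both scalings against the controls.

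SMS (ENSG00000102172, chrX:21940709-21994837, plus strand) encodes spermine synthase, which adds the second aminopropyl group. Its level was 291, 276 and 293 CPM in Ctrl, 205, 198 and 190 CPM in Dec, and 233, 198 and 194 CPM in Dec_Sam. All 6 treated libraries were below the controls. It fell by 31% with decitabine (log2 fold change -0.54 ± 0.08, SE, adjusted p = 2.84e-05) and by 27.2% with the combination treatment (-0.46 ± 0.08, adjusted p = 0.000123). With library size as the only scaling the changes were smaller, at -0.29 (adjusted p = 0.00286) and -0.24 (adjusted p = 0.0101), and still passed. The treatments were not told apart, with a difference of 0.08 on the log2 scale (95% interval -0.09 to 0.24, adjusted p = 0.538). Unlike the decarboxylases, neither aminopropyl transferase passed the test between the treatments.

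MTAP (ENSG00000099810, chr9:21802636-21937651, plus strand) encodes methylthioadenosine phosphorylase, which opens the salvage pathway by splitting the by-product of both aminopropyl transfers. Its level was 138, 128 and 141 CPM in Ctrl, 84.1, 69.9 and 76.6 CPM in Dec, and 116, 106 and 98.3 CPM in Dec_Sam. As for ODC1, the 3 groups did not overlap in CPM and Dec_Sam lay in between. Before scaling, the MTAP counts of Ctrl (2558 to 2854) and Dec_Sam (2307 to 2671) overlapped. MTAP fell by 43.4% with decitabine (log2 fold change -0.82 ± 0.08, SE, adjusted p = 9.32e-07), the largest fall among the members. With the combination treatment it stood at 0.788 of the control level (-0.34 ± 0.08, SE, adjusted p = 0.00212), a call that library size as the only scaling did not give (-0.13, adjusted p = 0.184). With SAM added to decitabine it was 1.39-fold higher (log2 fold change 0.48, 95% interval 0.30 to 0.66, adjusted p = 0.00302).

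**Figure D2:**
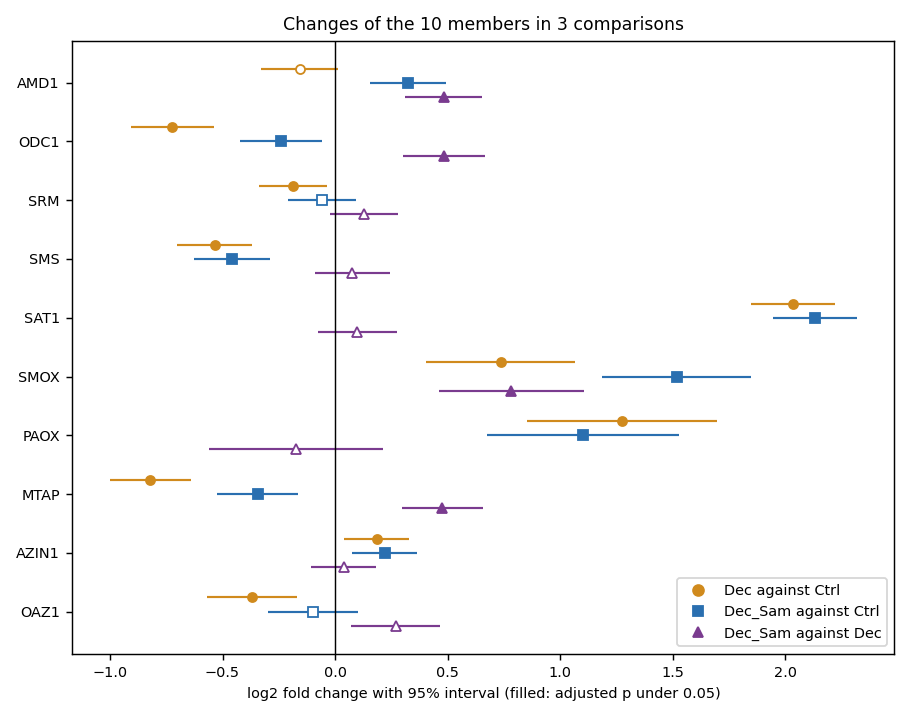
Log2 fold changes of the 10 members with 95% intervals in the 3 comparisons, with filled symbols for an adjusted p under 0.05. SAT1, PAOX and SMOX lie to the right in both treatments against Ctrl, and AMD1, ODC1, SMOX and MTAP are the members with filled symbols for Dec_Sam against Dec.

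Of the catabolic genes, SAT1 (ENSG00000130066, chrX:23783173-23786210, plus strand) encodes spermidine/spermine N1-acetyltransferase, the rate-limiting enzyme of polyamine breakdown, and is induced by polyamines themselves. It read 41.4, 52.2 and 42.7 CPM in Ctrl, 178, 193 and 187 CPM in Dec, and 196, 200 and 202 CPM in Dec_Sam. The lowest treated library, at 178 CPM, was far above the highest control at 52.2 CPM. The rise was 4.1-fold with decitabine (log2 fold change 2.04, 95% interval 1.85 to 2.22, adjusted p = 1.82e-10) and 4.39-fold with the combination treatment (2.13, 95% interval 1.95 to 2.32, adjusted p = 1.18e-10). Of all genes tested, 14.4% changed more than SAT1 with decitabine, in either direction. In CPM the Dec_Sam libraries were all above the Dec libraries, yet the difference of 0.10 on the log2 scale did not pass (95% interval -0.08 to 0.27, adjusted p = 0.45). Before scaling, the SAT1 counts of Dec (4209 to 4584) and Dec_Sam (4490 to 4738) overlapped.

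SMOX (ENSG00000088826, chr20:4120980-4187747, plus strand) encodes spermine oxidase, which turns spermine back into spermidine and releases hydrogen peroxide. It read 46.8, 40.3 and 35.8 CPM in Ctrl, 58.7, 64.2 and 81.8 CPM in Dec, and 131, 122 and 98.6 CPM in Dec_Sam. The level stepped up from group to group with no overlap. Decitabine raised SMOX 1.67-fold (log2 fold change 0.74, 95% interval 0.41 to 1.07, adjusted p = 0.00115). The combination treatment raised it 2.87-fold (1.52, 95% interval 1.19 to 1.85, adjusted p = 5.77e-06). SMOX had the largest difference between the treatments among the members, 1.72-fold (0.78, 95% interval 0.46 to 1.10, adjusted p = 0.00713), and 6.31% of all genes tested had a larger one in either direction.

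PAOX (ENSG00000148832, chr10:133379261-133391694, plus strand) encodes peroxisomal polyamine oxidase, which oxidizes the acetylated polyamines that SAT1 makes. It was the least abundant member, at 2.88, 2.55 and 1.88 CPM in Ctrl, 5.92, 6.92 and 4.87 CPM in Dec, and 5.92, 5.19 and 4.6 CPM in Dec_Sam, and the lowest library held 38 counts. Both treated groups lay above the controls and overlapped each other. It rose 2.42-fold with decitabine (log2 fold change 1.28 ± 0.20, SE, adjusted p = 4.87e-05) and 2.15-fold with the combination treatment (1.10 ± 0.20, adjusted p = 0.000202). Between the treatments the difference was -0.17 (95% interval -0.56 to 0.22, adjusted p = 0.554). A readthrough gene on the same strand (ENSG00000254536) overlaps PAOX exons and held 30.8% as many counts. With these added to PAOX, an alternative chosen after the data were seen, the log2 fold change became 1.07 for Dec and 1.14 for Dec_Sam against Ctrl, both still past the threshold, and 0.07 for Dec_Sam against Dec.

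The antizyme system controls the ODC1 protein. OAZ1 (ENSG00000104904, chr19:2269509-2273490, plus strand) encodes antizyme, which binds ODC1 and sends it to the proteasome, and its full-length protein is made by a frameshift that polyamines promote, so its mRNA level is only part of its control. It read 542, 566 and 490 CPM in Ctrl, 382, 404 and 453 CPM in Dec, and 542, 512 and 439 CPM in Dec_Sam. In CPM the Dec libraries were below the controls, and Dec_Sam overlapped both groups. Before scaling, the OAZ1 counts of Ctrl (9922 to 11315) and Dec (9041 to 10701) overlapped. OAZ1 fell by 22.5% with decitabine (log2 fold change -0.37, 95% interval -0.57 to -0.17, adjusted p = 0.00282), but not with library size as the only scaling (-0.12, adjusted p = 0.245). The combination treatment gave -0.10 against the controls (95% interval -0.30 to 0.10, adjusted p = 0.362), and 0.12 with that other scaling. Against decitabine alone the value was 0.27 (95% interval 0.07 to 0.47, adjusted p = 0.0641), which passed without the third Dec library (adjusted p = 0.0311) and without the third Dec_Sam library (adjusted p = 0.0103).

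AZIN1 (ENSG00000155096, on chromosome 8) encodes the antizyme inhibitor, an inactive relative of ODC1 that binds antizyme and so spares ODC1. Its level was 310, 281 and 302 CPM in Ctrl, 324, 351 and 340 CPM in Dec, and 345, 345 and 352 CPM in Dec_Sam. Every treated library was above every control, in CPM by a narrow margin (324 against 310). Before scaling the margin was wider, with at most 6250 AZIN1 counts in a control and at least 7655 in a treated library. In Dec the change was 0.18 on the log2 scale (95% interval 0.04 to 0.33, adjusted p = 0.0255) and in Dec_Sam it was 0.22 (95% interval 0.08 to 0.37, adjusted p = 0.00961). Without the second control library, the lowest, neither passed (adjusted p = 0.155 and 0.0732), and the first was also lost without the third control library, the second Dec library or the third Dec library. With library size as the only scaling the changes were larger, at 0.43 (adjusted p = 6.07e-05) and 0.44 (adjusted p = 4.81e-05). Between the treatments AZIN1 differed by 0.04 (95% interval -0.11 to 0.18, adjusted p = 0.742).

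Within the combination group the third library had the lowest level for 7 of 10 members, among them ODC1, SMOX, MTAP and OAZ1, and the first Dec library had the lowest for 6 of 10. The 4 members called higher between the treatments kept their calls in all 9 fits that left out 1 library. In these the log2 fold change was 0.41 to 0.58 for AMD1, 0.39 to 0.56 for ODC1, 0.69 to 0.93 for SMOX and 0.41 to 0.55 for MTAP.

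Ratios between members within a library do not depend on scaling and were taken as descriptions. The ratio of AZIN1 to OAZ1 counts was 0.496 to 0.617 in Ctrl, 0.751 to 0.869 in Dec and 0.636 to 0.802 in Dec_Sam. Inhibitor mRNA thus stood higher against antizyme mRNA in every treated library than in any control. The ratio of AMD1 to ODC1 was 0.0909 to 0.0928 in Ctrl, 0.125 to 0.144 in Dec and 0.119 to 0.155 in Dec_Sam, so both treated groups were above the controls and overlapped each other. The ratio of SMS to SRM was 0.754 to 0.832 in Ctrl, 0.586 to 0.663 in Dec and 0.544 to 0.648 in Dec_Sam. Spermine synthase mRNA had fallen relative to spermidine synthase mRNA in all 6 treated libraries.

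**Figure D3:**
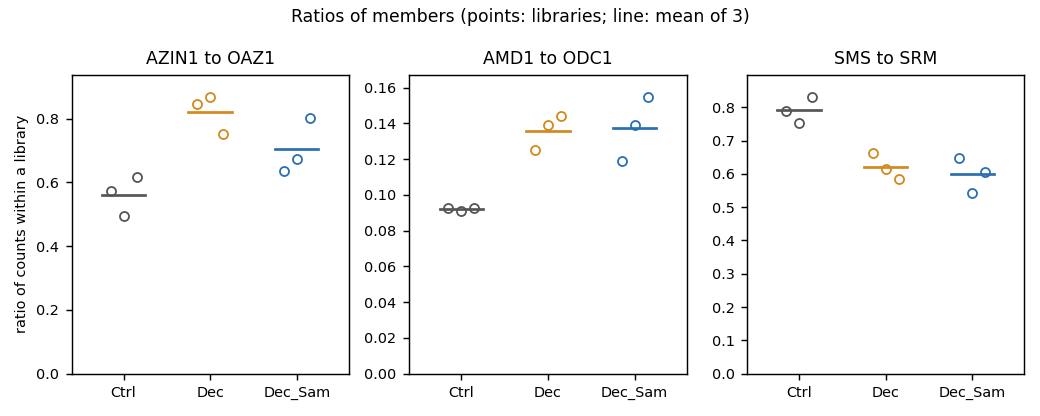
Ratios of the estimated counts of 2 members within each library (axes from 0), with points for libraries and a line for the mean of 3. The ratio of AMD1 to ODC1 is 0.0909 to 0.0928 in Ctrl and at least 0.119 in every treated library, and the ratio of SMS to SRM is at most 0.663 in every treated library.

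Divided by the length of the longest coding transcript, control levels ran over the members in the order OAZ1 (464 ± 34 CPM per kb, SD, n = 3), ODC1 (358 ± 3.07), SRM (288 ± 7.48), SMS (168 ± 5.29), AZIN1 (65.0 ± 3.32), SAT1 (43.3 ± 5.64), MTAP (18.0 ± 0.909), SMOX (17.6 ± 2.39), AMD1 (13.2 ± 0.165) and PAOX (1.33 ± 0.28). MTAP and SMOX were not separated, since the SMOX libraries ranged from 15.4 to 20.2 CPM per kb and those of MTAP from 16.9 to 18.6. SAT1 moved from rank 6 in Ctrl to rank 4 in both treated groups, at 178 CPM per kb in Dec and 190 in Dec_Sam. ODC1 fell to 217 CPM per kb in Dec, behind SRM at 253, and stood at 303 in Dec_Sam, where its libraries overlapped those of SRM. With the mean length of the coding transcripts in place of the longest, SRM stood ahead of ODC1 in all 3 groups and AMD1 ahead of SMOX in Ctrl.

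**Figure D4:**
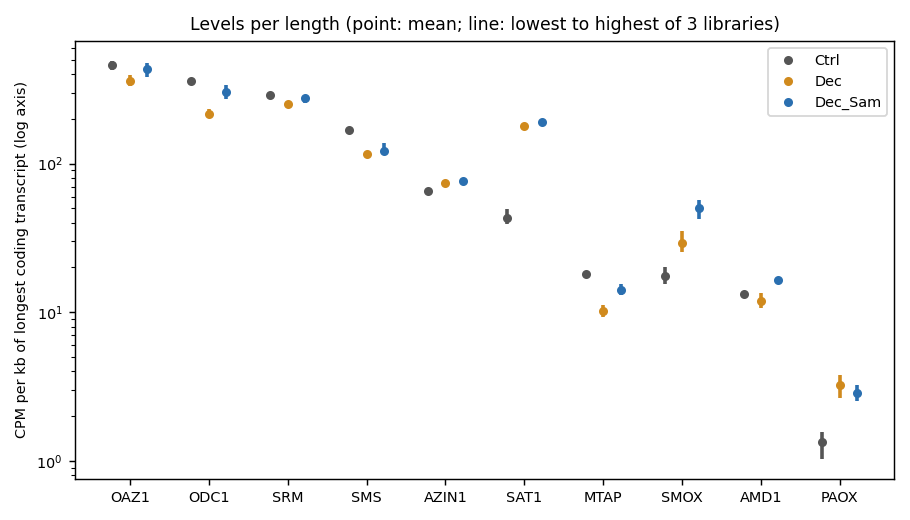
Levels per length of the 10 members in CPM per kb of the longest coding transcript (log axis), ordered by the Ctrl level. Points are means and lines run from the lowest to the highest of 3 libraries, and SAT1 rises from 43.3 in Ctrl to 178 in Dec and 190 in Dec_Sam.

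Another 29 genes of polyamine and methionine metabolism were read for context, of which 28 were tested. This list was also chosen with earlier results of these data known. Nothing is therefore read from its counts, or from those of its parts below, about these genes as a group. ARG1, the liver arginase, had at most 0.1 CPM in any library. With decitabine 4 were higher and 17 lower, where 36.3% and 32.5% of all genes tested were, with a median log2 fold change of -0.29. The combination treatment gave 6 higher and 14 lower than the controls, against 35.9% and 31.3% of all genes, with a median of -0.20. Library size as the only scaling gave 5 higher and 11 lower, and 8 higher and 11 lower. That scaling moved the median of all genes against Ctrl from 0.04 to 0.28 for Dec and from 0.05 to 0.27 for Dec_Sam. Between the treatments 8 were higher and 2 lower, against 7.67% and 8.02% of all genes, with a median of 0.17, but this count ran from 1 to 13 for the higher genes when 1 library was left out. It was 1 without the second Dec, the first Dec_Sam or the second Dec_Sam library and 13 without the third Dec_Sam library.

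Methionine salvage beyond MTAP comprised 5 genes, and all 5 were lower with decitabine, where 32.5% of all genes tested were. Under library size as the only scaling GOT1 was not called with decitabine (-0.03, adjusted p = 0.771), nor ADI1 with the combination treatment (-0.01, adjusted p = 0.911), and ENOPH1 turned to 0.07 with the combination treatment. APIP, the dehydratase of the pathway, fell most, by 1.13 ± 0.10 on the log2 scale (SE, adjusted p = 1.18e-07) and by 0.90 ± 0.09 with the combination treatment (adjusted p = 1.09e-06). ENOPH1, which acts after APIP, fell by 0.47 with decitabine (adjusted p = 8.99e-05) and did not differ past the threshold with the combination treatment (-0.15, adjusted p = 0.1). Like MTAP, ENOPH1 (0.32, adjusted p = 0.0144) and ADI1, the dioxygenase (0.24, adjusted p = 0.0394), were higher in Dec_Sam than in Dec. GOT1, a transaminase that can close the cycle, was lower (-0.24, adjusted p = 0.0449). The call of ENOPH1 was lost without the second Dec, the first Dec_Sam or the second Dec_Sam library, and those of ADI1 and GOT1 held in 3 and 2 of 9 fits that left out 1 library. ADI1 also missed the threshold there with library size as the only scaling (adjusted p = 0.061).

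Among the genes that supply ornithine or use agmatine, all 3 tested were higher between the treatments, where 7.67% of all genes were. They belong to the list chosen with earlier results known, so nothing is read from this count. ARG2, the mitochondrial arginase that makes ornithine, read 1.09, 0.7 and 1.14 CPM in Ctrl, 4.82, 4.26 and 5.93 CPM in Dec, and 7.49, 7.83 and 7.54 CPM in Dec_Sam. It rose by 2.35 on the log2 scale with decitabine (adjusted p = 2.31e-07) and by 2.96 with the combination treatment (adjusted p = 1.99e-08), and the difference was 0.61 (95% interval 0.25 to 0.96, adjusted p = 0.0251). OAT, ornithine aminotransferase, was at -0.31 with decitabine (adjusted p = 0.00721), at 0.10 with the combination treatment (adjusted p = 0.336) and 0.41 higher between the treatments (adjusted p = 0.00921). Under library size as the only scaling OAT was not called with decitabine (-0.06, adjusted p = 0.533) and was called higher with the combination treatment (0.32, adjusted p = 0.00383). AGMAT, agmatinase, was at -0.06 with decitabine (0.18 with that scaling, adjusted p = 0.758 and 0.367) and rose by 0.59 with the combination treatment (adjusted p = 0.00662). Without 1 library of either treated group, the first or the second, the differences of ARG2 and AGMAT between the treatments no longer passed (adjusted p up to 0.125 and 0.101), while that of OAT did.

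SAT2, a relative of SAT1 that acetylates thialysine rather than polyamines, was downregulated in both treatments, by 0.67 with decitabine (adjusted p = 1.19e-05) and by 0.39 with the combination treatment (adjusted p = 0.00124), the latter not called with library size as the only scaling (-0.17, adjusted p = 0.106). Its difference between the treatments, 0.28, passed narrowly (adjusted p = 0.0494) and was lost with that scaling (adjusted p = 0.0764) and in 7 of 9 fits that left out 1 library. Both genes of SAM synthesis, MAT2A and MAT2B, were lower in both treatments, at -0.69 and -0.28 with decitabine and at -0.86 and -0.42 with the combination treatment. MAT2A, the catalytic subunit of the enzyme that makes SAM, did not pass between the treatments (-0.16, adjusted p = 0.293). Of the antizyme relatives OAZ2, OAZ3 and AZIN2, OAZ2 was lower in both treatments (-0.67 and -0.46) and the others did not pass. MAT2A and MAT2B, like the antizyme relatives and EIF5A, EIF5A2, MYC and NFE2L2 below, were picked for the text after their values were seen. Their values with library size as the only scaling were not taken. Before scaling, the MAT2B counts of Ctrl (1422 to 1616) and Dec (1389 to 1506) overlapped, and those of Dec_Sam (1232 to 1335) were lower.

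Hypusination, the modification of EIF5A with an aminobutyl group from spermidine, was represented by 4 genes. DHPS, which carries out the first step, fell by 1.06 ± 0.08 with decitabine (SE, adjusted p = 3.65e-08) and by 0.99 ± 0.08 with the combination treatment (adjusted p = 6.89e-08). DOHH, which carries out the second, did not pass against the controls and passed between the treatments (0.36, adjusted p = 0.0404), in 4 of 9 fits that left out 1 library. DOHH was called higher with the combination treatment when library size was the only scaling (0.42, adjusted p = 0.00444) and missed the threshold between the treatments (adjusted p = 0.059). The substrate EIF5A was lower in both treatments (-0.59 and -0.41), while its relative EIF5A2 was higher (0.75 and 0.61).

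Of 7 genes tied to polyamine transport, SLC12A8 was raised by 1.16 with decitabine (adjusted p = 0.000135), at a level of at most 4.02 CPM. SLC22A3, an organic cation transporter that carries polyamines, passed for Dec_Sam against Ctrl (0.56, adjusted p = 0.000399) and against Dec (0.43, adjusted p = 0.0171), but not for Dec against Ctrl (0.13, adjusted p = 0.31), where library size as the only scaling gave 0.38 and a call. SLC18B1, a vesicular polyamine transporter, was lowest with the combination treatment, at 9.41 to 9.63 CPM against 14.5 to 17.2 CPM in Ctrl and 11.9 to 14.2 CPM in Dec, and lower than with decitabine alone by 0.47 on the log2 scale (adjusted p = 0.0109). The call of SLC22A3 between the treatments was lost without the second Dec, the first Dec_Sam or the second Dec_Sam library. That of SLC18B1 was lost without the second Dec or the second Dec_Sam library.

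Of the regulators of these genes, PMF1, a partner of NRF2 at the SAT1 gene, fell by 1.38 with decitabine (adjusted p = 3.74e-08) and by 1.18 with the combination treatment (adjusted p = 1.58e-07), while SAT1 rose. MYC, an activator of ODC1, was at -0.85 and -0.72 (adjusted p = 9.5e-07 and 4.79e-06), and NFE2L2, which encodes NRF2, at -0.36 in both. Before scaling, the NFE2L2 counts of Ctrl (2184 to 2395) and Dec (1991 to 2209) overlapped, and those of Dec_Sam (1950 to 2141) were lower. None of the 3 regulators passed between the treatments. Whether PMF1 shares reads with an overlapping gene was not checked. The levels of these mRNAs do not show the activity of the proteins.

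**Figure D5:**
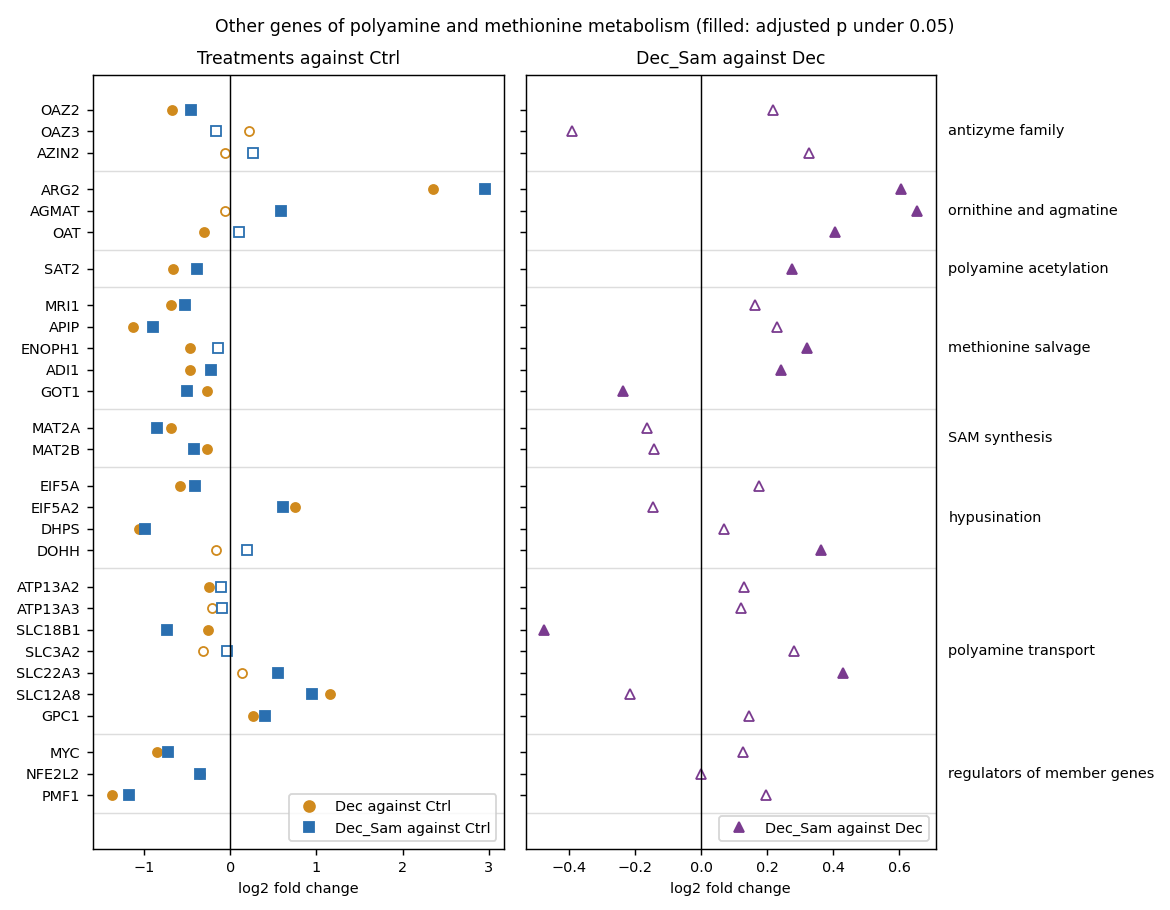
Log2 fold changes of the 28 other genes tested, grouped by role, for both treatments against Ctrl (left) and for Dec_Sam against Dec (right, on a narrower axis), with filled symbols for an adjusted p under 0.05. All 5 salvage genes lie left of 0 in both treatments against Ctrl under TMM scaling (ENOPH1 turns to 0.07 in Dec_Sam with library size alone), and ARG2 lies farthest to the right at 2.35 and 2.96.

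Of the 10439 genes averaging 10 CPM or more, those whose log2 CPM over the 9 libraries was most like that of AMD1 were FAM89B (Pearson r 0.984), PTGR2 (0.972) and ATG4D (0.968). The 9 libraries share treatments and scaling, and 82 genes had an r over 0.9. FAM89B had means of 49.1 CPM in Ctrl, 41.8 in Dec and 67.2 in Dec_Sam.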

How the data were processed

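RNA-seq libraries of PC-3 cells (3 Ctrl, 3 Dec, 3 Dec_Sam) were grouped by their treatment label. Nothing says that the libraries of a group came from separate cultures, so p-values measure the spread between these libraries, which may be technical. According to the submitters' processing notes, the authors trimmed reads with Trim Galore 0.6.4 and pseudoaligned them to GRCh38.p13 with kallisto 0.4.6, while the study's methods give another version of kallisto. The deposited values used here were estimated counts per Ensembl gene, not normalized. Reads assigned between overlapping or related genes are shared out by kallisto's model, so the estimated counts of PAOX are uncertain. Counts of overlapping genes were examined for the members only, and not for the other pathway genes. Deposited log2 CPM values were not used. Strand use in counting is not given in the sources used here.

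Estimated counts were rounded, and edgeR 4.0.16 (R version 4.3.3) was run on the 18532 genes left by filterByExpr with a minimum count of 10 (TMM, robust quasi-likelihood test, 1 mean per group over all 9 libraries, Benjamini-Hochberg adjustment over all genes, threshold 0.05). Standard errors were taken from the F statistic and are approximate. The study's methods name voom and limma, which was run as an alternative (limma 3.58.1), as was DESeq2 1.42.0. Levels are CPM on TMM-scaled library sizes. TMM factors were 0.895 to 0.902 in Ctrl, 1.058 to 1.078 in Dec and 1.033 to 1.07 in Dec_Sam, and library size alone moved the median of all genes to 0.28, 0.27 and -0.02 in the 3 comparisons. Totals of about equal size make counting error small for all members but PAOX. Within groups, chi-square values per degree of freedom of 5.86 to 23.5 showed no copied library. On simulated data with changes of 1 on the log2 scale, 99.8% of changed genes were recovered in each comparison, and 4.73%, 5.36% and 4.34% of calls were false. Each draw changed 200 genes per treated group, up or down at random, of at least 15654 tested. In these data 12759 genes were called with decitabine, so the simulated rates may not hold here. Smaller changes and the shift between scalings were not simulated. Pseudogene copies of the members were summed with them as an alternative.

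The members and lists were chosen with earlier results of these data known. All 10 members were named. Of the other pathway genes, those called with a log2 fold change of at least 1 in size, or called between the treatments, were named, and so were the 3 genes most like AMD1. Coordinates and lengths came from GENCODE release 44, promoters from RefSeq. Figures were drawn with Python 3.11.15 and matplotlib 3.10.9.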

Additional observations from a re-analysis of the deposited data

How the results depend on the processing

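The calls of AMD1, ODC1, SMOX and MTAP between the treatments held under added pseudogene counts, the replicate block, a fit of only the libraries compared, a floor of 10 mean counts or none, limma after voom, DESeq2, its size factors in edgeR, and library size alone. Library size as the only scaling gave 3 members lower with decitabine and 1 with the combination treatment, 11 other pathway genes lower with decitabine and 5 higher between the treatments, and it turned SRM to 0.06 and 0.16. Among the other pathway genes between the treatments, 1 was lower with voom and limma and with no filter, and 5 were higher and 1 lower with only the 6 libraries compared. With 1 library left out these counts were 1 to 13 higher and 0 to 2 lower. With a log2 fold change of at least 1 in size required, 2 members were higher and 0 lower with decitabine, 3 and 0 for Dec_Sam against Ctrl, and 0 for Dec_Sam against Dec. The other pathway genes then gave 2 higher and 3 lower, 1 and 1, and 0 and 0. With no filter AMD1 passed with decitabine (-0.20, adjusted p = 0.0498) and AZIN1 passed in neither treatment (adjusted p = 0.171 and 0.0548). OAZ1 passed between the treatments with no filter (adjusted p = 0.0112) and with DESeq2 (adjusted p = 0.0436). The cause of these shifts was not tested.

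Replicate numbers are shared by the groups. Over all groups, same-numbered libraries had r from -0.04 to 0.32, against -0.31 to 0.07 for other pairs. In all, 6 of 9 libraries correlated best with their own number. Between Dec and Dec_Sam, same-numbered libraries had r of 0.32, 0.05 and 0.32, and other pairs -0.31 to 0.05. The numbers may thus pair Dec with Dec_Sam libraries, which the main fit did not take into account. The replicate block gave 12945, 12673 and 3656 calls over all genes in place of 12759, 12446 and 2908, and 4 members higher and 0 lower between the treatments, as without it. It changed no call of a member. Precision is limited mainly for PAOX, with 38 counts in its lowest library, and by 3 libraries per group.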
